A study of Sus scrofa with 4 samples.

Results

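The fatty acid desaturases and elongation enzymes FADS1, FADS2, FADS3, ELOVL1, ELOVL3, ELOVL4, ELOVL5, ELOVL7, HACD3 and TECR were followed through the differentiation of pig subcutaneous preadipocytes in culture. They were taken by gene symbol from the protein-coding genes of the deposited tables, and all 10 were found among 16192 protein-coding genes. A gene was counted as reliably expressed when its FPKM, which relates the fragments counted on a gene to its length and to the library total, was 1 or more in 3 or 4 of the libraries. Of the 10 genes, 9 met this definition, as did 9191 of all protein-coding genes, and ELOVL3 did not. Only transcript levels were measured, not enzyme activities or fatty acids.

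The cells were spun down from collagenase-digested subcutaneous fat of 3 male Chinese Erhualian piglets aged 5 days, a breed that lays down much subcutaneous fat. D0 was the confluent culture before induction, and D2, D4 and D8 were reached 2, 4 and 8 days later. The cocktail of dexamethasone, 3-isobutyl-1-methylxanthine and insulin was present up to D2, insulin alone from D2 to D4, and growth medium without added hormones thereafter. At each stage the RNA of the 3 piglets was mixed in equal amounts and sequenced as a single library, so that a stage cannot be told apart from its library and no test between stages was possible. Where 4 values follow each other below, they stand in the order of the stages (D0, D2, D4, D8).

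Long-chain fatty acids are lengthened in the endoplasmic reticulum by a cycle of condensation, reduction, dehydration and a second reduction. The ELOVL enzymes carry out the condensation and set which chains are lengthened, HSD17B12 makes the first reduction, the HACD enzymes the dehydration, and TECR the final reduction. The desaturases FADS1 and FADS2 place double bonds near the carboxyl end of polyunsaturated chains and alternate with ELOVL5 in making arachidonic acid and related products from dietary precursors, whereas the monounsaturated fatty acids stored by adipocytes are made by the separate enzyme SCD.

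The 4 libraries held between 54128151 and 75387428 fragments, as computed from the deposited values. The labelled cell type was checked against marker genes. All 7 reliably expressed adipocyte markers of 8 listed were at least 2-fold higher at D2, D4 and D8 than at D0. Of all 9191 reliably expressed genes, 6.67%, 10.4% and 3.6% were. The summed FPKM of the 8 markers was 119, 474, 1753 and 2097. From D4 to D8, only 1 of the 7 reliably expressed markers was higher, FABP4 (853 to 1557). PLIN1, CEBPA and LIPE were at least 2-fold lower, where 10.1% of all reliably expressed genes were. CIDEC, the marker that was not reliably expressed, went from 5.01 to 54.6. The summed FPKM of 7 preadipocyte and fibroblast markers was 1130, 2272, 3034 and 2296, so markers of both cell types were present throughout. COL3A1 alone had 491, 1286, 2058 and 1624 of this sum. Of the 7 markers, 5 were above D0 at D4 and 3 at D8, beside 53.8% and 31.5% of all reliably expressed genes. THY1 and COL1A1 were below D0 at both stages. Leukocyte markers were low, with PTPRC, CD68 and CSF1R under an FPKM of 1 in every library and a highest value in the list of 7.54 for CD14. Among endothelial markers only PECAM1 reached an FPKM of 1, with at most 2.56. Of the epithelial markers, KRT5, a keratin of basal epithelial cells, had an FPKM of 44.4, 107, 180 and 275 and was called higher than D0 at each later stage, while KRT18, CDH1 and EPCAM stayed under 1. The part of such cells in the results below was not tested. In bulk RNA of this kind, fewer cells expressing a gene and less of its RNA per cell cannot be told apart.

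Ratios between libraries were computed as log2 of FPKM with 0.01 added to each value, and a gene was called higher or lower when the ratio was at least 2-fold. Intervals given below are 95% intervals computed from the read numbers behind the FPKM values, and they cover counting error only, not the spread between piglets or library preparations. The comparisons of D2, D4 and D8 with D0 share the D0 library, and consecutive comparisons share the library between them. The 10 genes divided into groups with different courses. ELOVL5, ELOVL7 and TECR were highest at D4, FADS1 and FADS2 were highest at D0 and lowest at D8, and FADS3 was low at D2 and D4 with most of its signal at the first and last stages. ELOVL1, ELOVL4 and HACD3 differed by less than 2-fold in each of the 5 comparisons, and ELOVL3 was at or near 0.

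**Figure D1:**
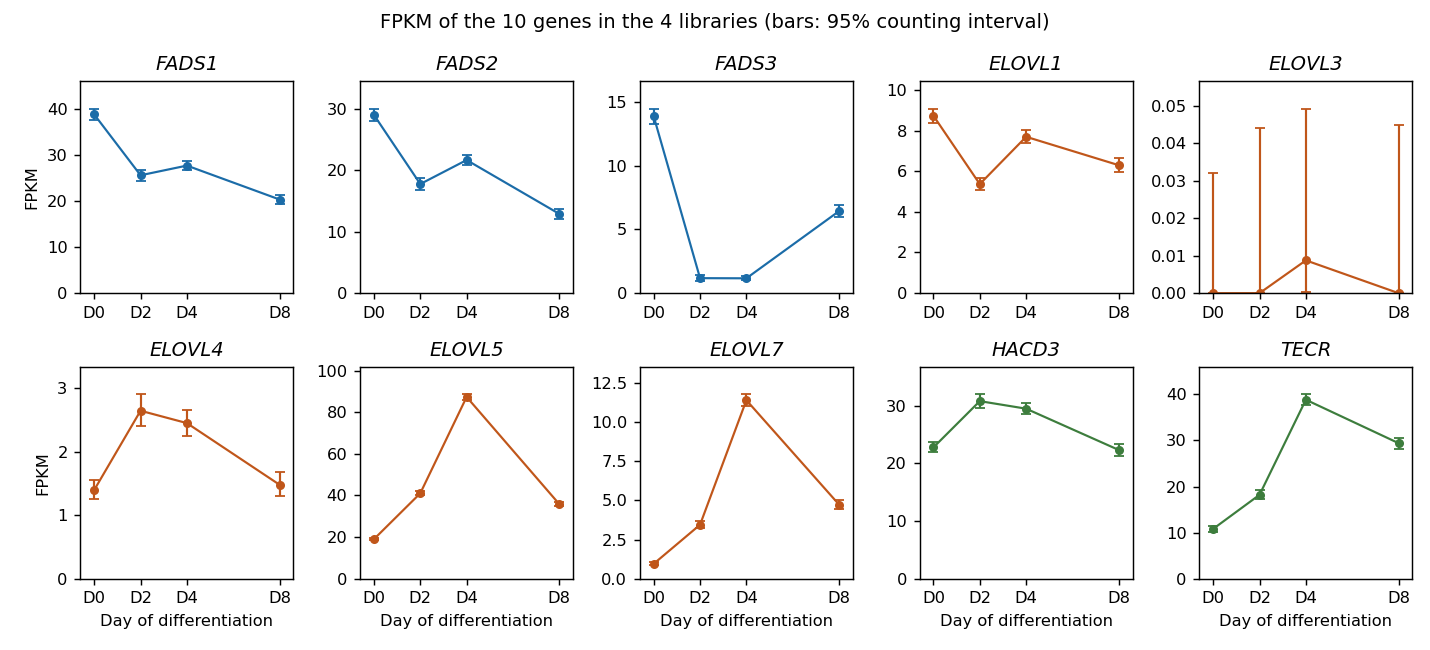
FPKM (vertical axis, a separate linear scale from 0 for each gene) of the 10 genes against the day of differentiation, with 1 pooled library per stage. Bars are 95% counting intervals. ELOVL5 and ELOVL7 peaked at D4 with 87.3 and 11.4, FADS3 fell from 13.9 at D0 to 1.18 at D2, and ELOVL3 had a single read in all 4 libraries.

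Among the desaturases, FADS1 is the delta-5 desaturase, which completes arachidonic acid. It lies on chromosome 2 from 9735425 to 9747405 on the plus strand of the Sscrofa11.1 assembly. Its FPKM was 38.8, 25.6, 27.7 and 20.3, from 3835, 1845, 2700 and 1443 reads. All 3 later libraries were below D0, yet none by 2-fold. The log2 ratio of D8 to D0 was -0.93 (-1.02 to -0.84), the value closest to the threshold from outside among the ratios below 0. The other ratios of FADS1 lay between -0.60 for D2 vs D0 and 0.11 for D4 vs D2.

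FADS2 is the delta-6 desaturase, the entry point of the polyunsaturated pathway, and lies 68.758 kb from FADS1 on the opposite strand (chromosome 2, 9633941 to 9666666). Its FPKM was 29.0, 17.7, 21.6 and 12.9, from 3251, 1452, 2395 and 1038 reads. The order of the stages was the same as for FADS1, and each neighbour in that order differed by more than its counting interval in both genes. With median-of-ratios scaling, however, the log2 ratio of D4 to D2 for FADS1 shrank from 0.11 (0.03 to 0.20) to 0.02. For FADS2, only the comparison of D8 with D0 reached 2-fold, with a log2 ratio of -1.17 (-1.27 to -1.07). FADS2 had the 198th lowest of the 9191 ratios in that comparison. The courses nearest to FADS2 were those of SCARA3, a scavenger receptor family member, ID3, an inhibitor of helix-loop-helix factors, and MSMO1, an enzyme of sterol synthesis. Their distances to FADS2, measured as for the pairs below, were 0.03, 0.09 and 0.20, and SCARA3 had an FPKM of 12.1, 7.38, 9.17 and 5.45.

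FADS1 and FADS2 had the most similar courses of any pair among the 9 reliably expressed genes, with a Euclidean distance of 0.23 between their centred log2 FPKM values over the 4 libraries. The ratio of FADS1 to FADS2 FPKM stayed between 1.28 at D4 and 1.58 at D8. Together they summed to an FPKM of 67.8, 43.3, 49.3 and 33.2. SCD, the delta-9 desaturase of monounsaturated fatty acid synthesis, had an FPKM of 31.5, 249, 1053 and 772, above D0 at each later stage where FADS1 and FADS2 were below it. The FPKM of SCD was thus 1.09 times that of FADS2 at D0 (1.05 to 1.13), 14.1 times at D2, 48.7 times at D4 and 59.9 times at D8 (56.4 to 63.8).

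FADS3, a member of the same gene cluster with known activity on sphingoid bases, had the largest fall of the 10 genes. It lies on chromosome 2 from 9607627 to 9627352 on the plus strand. Its FPKM was 13.9, 1.18, 1.17 and 6.44, from 2150, 133, 178 and 716 reads. The libraries of D2 and D4 were both low, and that of D8 lay between them and D0.

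The log2 ratio of FADS3 was -3.55 (-3.82 to -3.31) for D2 vs D0, an 11.8-fold fall and the 32nd lowest of 9191 genes. Between D2 and D4 it was -0.01, with an interval from -0.35 to 0.32 that held 0. From D4 to D8 FADS3 rose 5.53-fold, a log2 ratio of 2.46 (2.23 to 2.71) and the 44th highest of all. At D8 it was nevertheless below D0, at -1.11 (-1.23 to -0.99), and this call was lost when the libraries were rescaled by median-of-ratios factors (-0.95). A fall of at least 2-fold from D0 to D2 joined with a rise of at least 2-fold from D4 to D8 was found for FADS3 alone among the 9 genes and for 286 of the 9191, or 3.11%.

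The genes with courses closest to FADS3, among protein-coding genes with an FPKM of at least 10 in at least one library, were SEMA3D, TGFB1I1 and AXL, at distances of 0.24, 0.34 and 0.34. SEMA3D, a secreted semaphorin, had an FPKM of 76.5, 6.97, 5.50 and 35.2. The 3 reliably expressed genes of the muscle list moved in the same libraries. ACTA2, smooth muscle actin, had an FPKM of 2907, 324, 225 and 2762. TAGLN, an actin-binding protein of smooth muscle and myofibroblasts, had 2767, 297, 277 and 1987. DES, the intermediate filament protein desmin, had 436, 37.7, 4.05 and 35.7. It rose 8.81-fold from D4 to D8 but was then still below D0, at a log2 ratio of -3.61. The summed FPKM of the 6 muscle genes analysed was 6111, 660, 507 and 4786. MYOG, MYH11 and ACTA1 stayed under 1 in every library, and the part of such cells or states in the course of FADS3 was not tested.

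**Figure D2:**
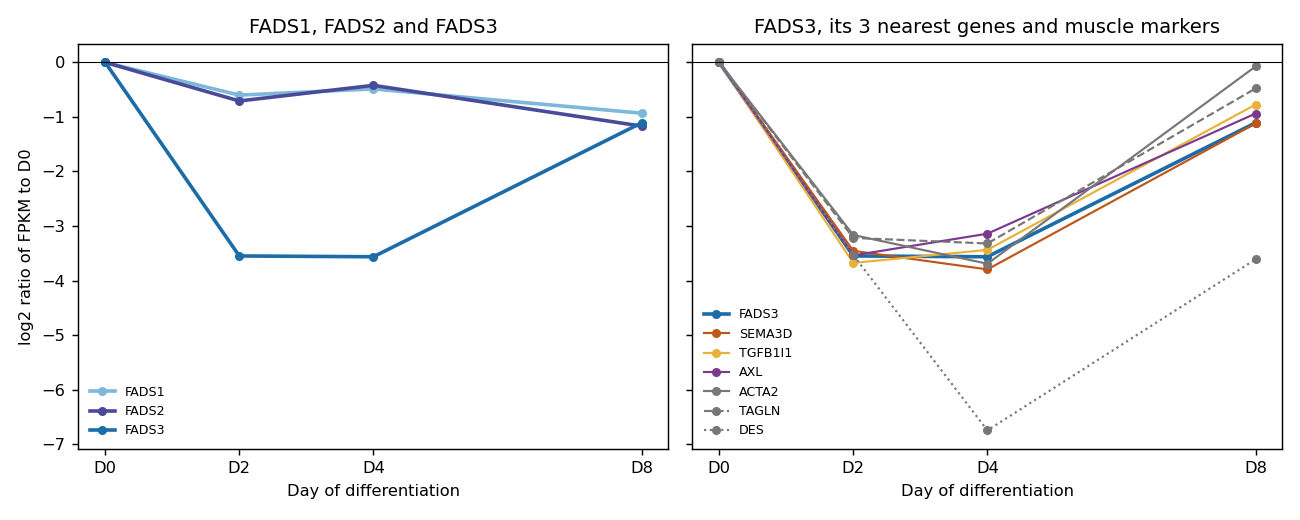
Log2 ratio of FPKM to D0 (vertical axis) against the day of differentiation, for FADS1, FADS2 and FADS3 (left) and for FADS3 with its 3 nearest genes and the 3 reliably expressed muscle markers (right), with 1 library per stage. FADS3 was at -3.55 at D2 and -3.56 at D4, below FADS1 and FADS2, and SEMA3D, TGFB1I1 and AXL followed the same course, while DES was still at -3.61 at D8.

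The 3 FADS genes share one region, in which FADS3 and FADS2 meet with their ends 6.588 kb apart and the whole cluster spans 139.779 kb. At D0 the FPKM of FADS1 was 2.79 times that of FADS3 (2.65 to 2.95), at D2 21.7 times, at D4 23.8 times and at D8 3.16 times. The nearest upstream gene, RAB3IL1, coding for a guanine nucleotide exchange factor, had an FPKM of 4.04, 2.20, 1.34 and 2.69. It fell by 1.59 on the log2 scale from D0 to D4 and rose by 1.01 from D4 to D8, the directions also seen for FADS3. FTH1, the ferritin heavy chain gene further upstream, rose by 1.52 on the same scale between these libraries. FEN1, a nuclease of DNA replication, and TMEM258, a subunit of the oligosaccharyltransferase complex, did not reach 2-fold in any comparison with D0.

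**Figure D3:**
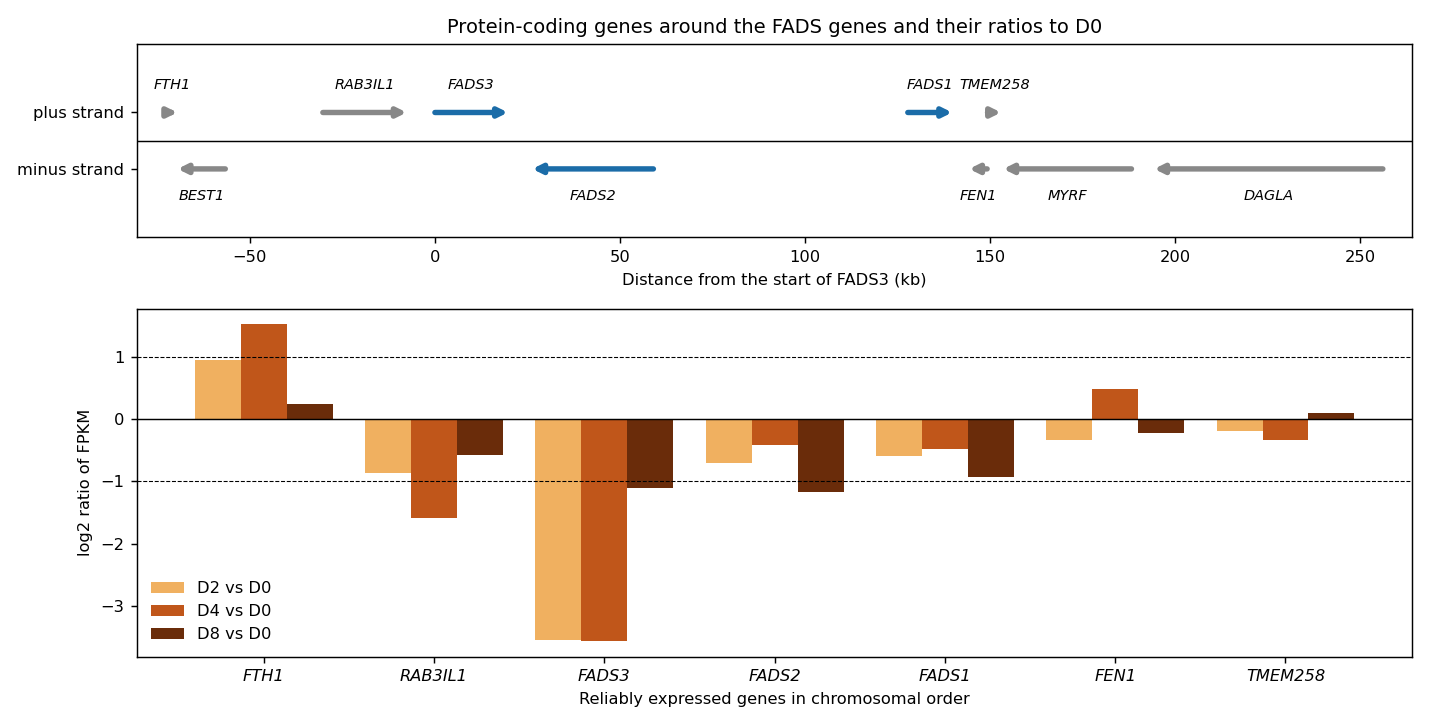
Upper panel: protein-coding genes within 100 kb of the FADS cluster, drawn to scale in kb from the start of FADS3, arrows giving the direction of transcription. Lower panel: log2 ratio of FPKM to D0 at D2, D4 and D8 for the reliably expressed genes of the region, with dashed lines at 2-fold. FADS3 had the largest fall, -3.56 at D4, and FTH1 the largest rise, 1.52 at D4.

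Of the elongases, ELOVL5 acts on polyunsaturated chains between the steps of FADS2 and FADS1. It lies on chromosome 7 from 46860768 to 46932945 on the minus strand. Its FPKM was 19.0, 41.1, 87.3 and 35.8, from 4156, 6541, 18807 and 5619 reads. D4 was the highest library and D0 the lowest, and every neighbour in the order differed by more than its counting interval.

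ELOVL5 rose 2.16-fold from D0 to D2, with a log2 ratio of 1.11 (1.05 to 1.17), and again from D2 to D4, with 1.09 (1.05 to 1.13). With median-of-ratios scaling the second value was just under the threshold. From D4 to D8 it fell 2.44-fold, a log2 ratio of -1.28 (-1.33 to -1.24), which left D8 at 0.91 (0.85 to 0.97) over D0. Across the whole course D4 stood 4.59-fold above D0. The FPKM of ELOVL5 was 0.657 times that of FADS2 at D0, 2.32 times at D2, 4.04 times at D4 and 2.78 times at D8, so the order of these partner genes was inverted after D0. The nearest courses to ELOVL5 belonged to a gene listed as rna78615, to VCAN, the proteoglycan versican, and to LIPA, the lysosomal acid lipase, at distances of 0.14, 0.16 and 0.19.

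ELOVL7 prefers saturated long chains. It lies on chromosome 16 from 39588122 to 39680273 on the minus strand. Its FPKM was 0.956, 3.45, 11.4 and 4.73, from 316, 831, 3714 and 1123 reads. Its peak was therefore at D4 as for ELOVL5, from a far lower level at D0.

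ELOVL7 rose 3.61-fold from D0 to D2 and 3.31-fold from D2 to D4, with log2 ratios of 1.84 (1.66 to 2.04) and 1.72 (1.62 to 1.83). At D4 it was 11.9-fold above D0, a log2 ratio of 3.56 (3.41 to 3.75) and the 81st highest of 9191. It then fell from D4 to D8 by 1.27 on the log2 scale (-1.37 to -1.17) and stayed 4.95-fold above D0 at D8. With a pseudocount of 1 the D4 vs D0 ratio shrank by 0.90 on the log2 scale. A rise of at least 2-fold in each of the first steps and a fall of at least 2-fold in the last was shared by ELOVL5 and ELOVL7, and by 42 of the 9191 genes, or 0.457%. With median-of-ratios scaling ELOVL5 did not have this pattern, since its D4 vs D2 ratio was 0.997. The genes nearest to ELOVL7 were UNC119, SSH2 and PC, the last being pyruvate carboxylase, which had an FPKM of 2.17, 9.17, 30.4 and 15.4.

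ELOVL1, which makes saturated very long chains for sphingolipids, lies on chromosome 6 from 167881357 to 167886125. Its FPKM was 8.73, 5.36, 7.69 and 6.29. Its log2 ratios ran from -0.70 (D2 vs D0) to 0.52 (D4 vs D2), all of them under 2-fold. ELOVL4, which makes the longest chains known in retina, brain and skin, lies on chromosome 1 from 86163845 to 86196036.

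ELOVL4 had an FPKM of 1.40, 2.65, 2.45 and 1.48, from 321, 443, 555 and 244 reads. Its D2 and D4 libraries could not be separated by counting error, nor could D8 and D0. The log2 ratio of D2 to D0 was 0.92 (0.71 to 1.13), whose interval held the threshold, and it passed the threshold (1.02) when protein-coding FPKM was scaled to one sum. ELOVL3, an elongase of brown fat, liver and sebaceous glands, lies on chromosome 14 from 113226589 to 113230038. It was listed at 0 at D0, D2 and D8 and had 1 read at D4. A count of 0 at these depths allows an FPKM of up to 0.0262 at D0 and 0.0364 at D8, taking 3 reads as the limit.

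The make-up of the elongase transcripts changed with the stage. The summed FPKM of ELOVL1 to ELOVL7 was 33.8, 57.3, 148 and 142. ELOVL5 made up 56.3%, 71.7%, 59.0% and 25.2% of this sum. ELOVL6, the elongase of newly made palmitate and no part of the 10 genes, took 10.9%, 8.30%, 26.4% and 66.0%. Without ELOVL6 the sum was 30.1, 52.5, 109 and 48.3, so the close totals of D4 and D8 with ELOVL6 included were not found without it. The share of ELOVL7 was highest at D4, at 7.70%, and that of ELOVL1 was 25.8% at D0 and 4.42% at D8.

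**Figure D4:**
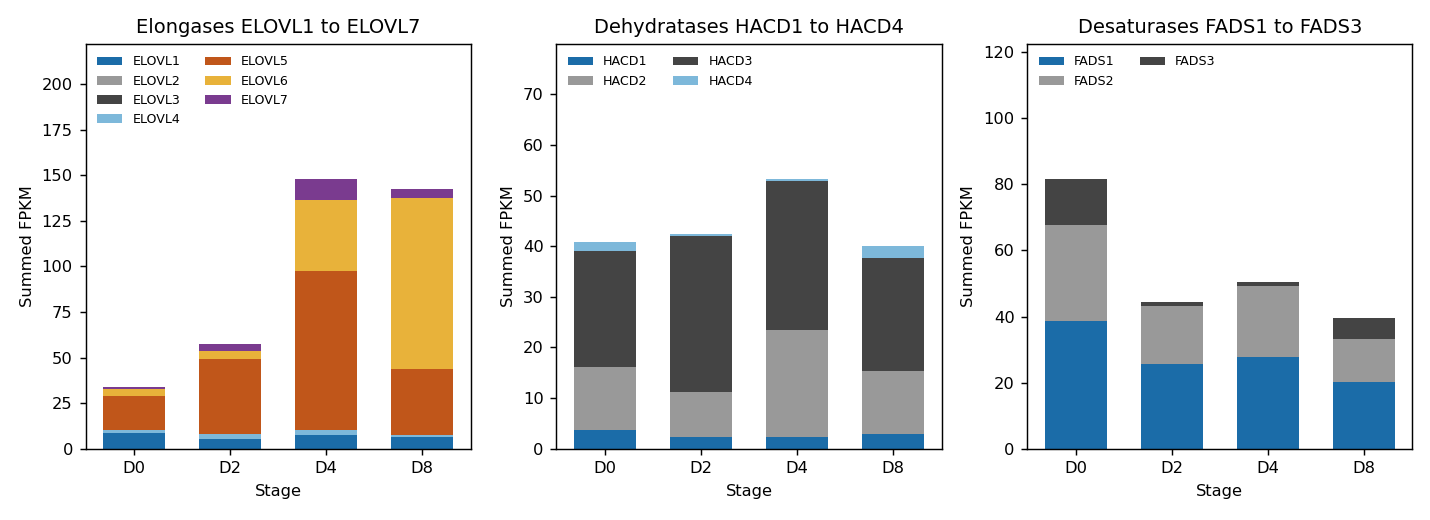
Stacked bars of FPKM, summed over the ELOVL genes (left), the HACD genes (middle) and the FADS genes (right), for the 4 stages. Colours mark the genes, vertical scales differ between panels, and there is 1 library per stage with no error bars. ELOVL5 is the largest elongase segment at D0, D2 and D4 and ELOVL6 at D8 (66.0%), while the sum of the FADS genes is highest at D0, at 81.6.

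TECR, the enoyl reductase that closes the cycle for all chain types, lies on chromosome 2 from 64723698 to 64752209 on the minus strand. Its FPKM was 10.8, 18.2, 38.8 and 29.4, from 1234, 1514, 4365 and 2407 reads. D4 was the highest library and D0 the lowest. TECR had a log2 ratio of 0.75 (0.64 to 0.86) for D2 vs D0, under the threshold, and rose from D2 to D4 by 1.09 (1.01 to 1.18). It was 3.59-fold above D0 at D4 and 2.72-fold at D8. The nearest courses were those of OXCT1, a mitochondrial enzyme of ketone body use, MGST3 and GPNMB, at distances of 0.15, 0.29 and 0.30.

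HACD3, a dehydratase of the cycle, lies on chromosome 1 from 163525872 to 163567649 on the plus strand. Its FPKM was 22.8, 30.8, 29.5 and 22.3, the narrowest range of the 9 genes at 1.38-fold between the highest and the lowest. D2 and D4 were not separated by counting error, nor were D0 and D8, and the sign of D8 vs D0 turned from -0.03 to 0.13 with median-of-ratios scaling. HACD3 accounted for 55.7%, 72.8%, 55.4% and 55.8% of the summed HACD FPKM. The FPKM of TECR was 0.475 times that of HACD3 at D0, 0.591 times at D2 and 1.32 times at both D4 and D8. The gene INTS14 overlaps the end of HACD3 on the opposite strand at an FPKM of 2.49 to 3.67, and the strand setting of the read counting is not given in the sources used here.

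The transcripts of the steps of the cycle differed in size of change. HSD17B12, the ketoacyl reductase, had an FPKM of 63.5, 149, 293 and 228, which made D4 4.61-fold higher than D0. The corresponding D4 values over D0 were 4.38 for the summed elongases, 3.59 for TECR and 1.30 for the summed dehydratases. HACD2, another dehydratase, rose from an FPKM of 8.84 at D2 to 21.1 at D4 and was at 12.5 at both D0 and D8. HACD4 was not reliably expressed, with an FPKM of 1.89, 0.260, 0.353 and 2.30. Of the 6 other genes of the cycle, 4 were reliably expressed, and their median log2 ratio for D4 vs D0 was 1.48. ELOVL2, the remaining elongase, was at 0 in 3 libraries and at 0.00440 at D8.

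**Figure D5:**
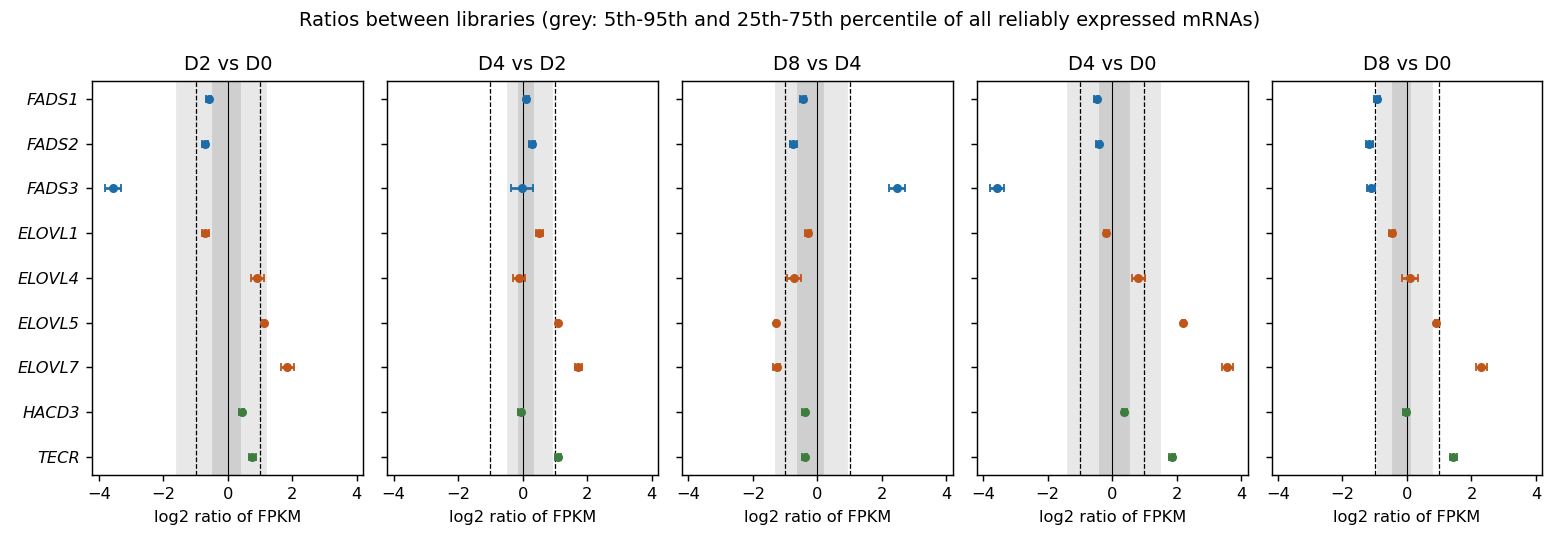
Log2 ratio of FPKM (horizontal axis) of the 9 reliably expressed genes in the 5 comparisons, later library first, with 95% counting intervals and dashed lines at 2-fold. Grey bands hold the middle 90% (light) and the middle 50% (dark) of all 9191 reliably expressed protein-coding genes. FADS3 is far to the left in D2 vs D0 and D4 vs D0 (-3.55 and -3.56), ELOVL7 far to the right in D4 vs D0 (3.56), and HACD3 stays within 0.44 of 0.

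The calls can be set beside the share of all 9191 reliably expressed genes that passed 2-fold in the same comparison. For D2 vs D0, 3 of the 9 genes were called, where 16.8% of all were. ELOVL5 and ELOVL7 rose (6.67% of all rose) and FADS3 fell (10.1% of all fell). For D4 vs D2, 3 of the 9 were called against 5.08% of all. These were ELOVL5, ELOVL7 and TECR, which rose (4.24% of all), while none fell (0.838% of all). For D8 vs D4, 3 of the 9 were called against 14.5% of all, since FADS3 rose (4.43% of all) and ELOVL5 and ELOVL7 fell (10.1% of all). For D4 vs D0, 4 of the 9 were called against 19.2% of all, with a rise of ELOVL5, ELOVL7 and TECR (10.4% of all) and a fall of FADS3 (8.81% of all). For D8 vs D0, 4 of the 9 were called against 7.28% of all, with a rise of ELOVL7 and TECR (3.6% of all) and a fall of FADS2 and FADS3 (3.68% of all).

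The median log2 ratio of the 9 genes was 0.44, 0.29, -0.45, 0.37 and -0.03 in these comparisons, in that order, beside -0.03, 0.09, -0.21, 0.06 and -0.18 for all reliably expressed genes. In all, 5 of the 9 genes passed 2-fold in at least one comparison, as did 29.9% of all. FADS3 and ELOVL7 passed it in each of the 3 comparisons with D0, as did 4.28% of all. Ratios with D8 depended on the scaling. Median-of-ratios scaling raised every D8 vs D4 value by 0.21 and every D8 vs D0 value by 0.16. Protein-coding sum scaling shifted them by -0.05 and -0.01. With median-of-ratios scaling, the D8 vs D4 ratios were 2.67 for FADS3, -1.07 for ELOVL5 and -1.05 for ELOVL7. The D8 vs D0 ratios were then -1.01 for FADS2, 1.60 for TECR, 2.45 for ELOVL7 and 1.07 for ELOVL5. ELOVL5 thus passed the threshold with this scaling, but not with protein-coding sum scaling (0.90).

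Desaturases receive electrons through cytochrome b5 and its reductases. Of the 6 genes in this list, CYB5R2, CYB5R3 and CYB5R4 were not found by symbol among the protein-coding genes. CYB5A, CYB5B and CYB5R1, the 3 that were analysed, did not reach 2-fold in any of the 5 comparisons. Of all reliably expressed genes, 29.9% did in at least 1 of them. The FPKM of CYB5A, a cytochrome b5, was 32.4, 55.5, 50.2 and 44.4. The median log2 ratio of the list for D4 vs D0 was 0.63, beside 0.06 for all reliably expressed genes.

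Malonyl-CoA supplies the carbons added in each cycle. The list of acetyl-CoA and malonyl-CoA supply and fatty acid synthase held 5 reliably expressed genes. Of these, 4 rose between D0 and D4 (FASN, ACLY, ACACA and ACSS2), where 10.4% of all 9191 genes rose. The median log2 ratio was 2.50, beside 0.06 for all. All 4 were also called higher at D8 than at D0, where 3.6% of all were, with a list median of 1.75 beside -0.18. Of the desaturase list outside the FADS genes, SCD rose at D2 and D4. DEGS1, the dihydroceramide desaturase, had an FPKM between 33.4 and 47.0, and DEGS2, SCD5 and FADS6 were not reliably expressed.

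Acyl-CoA synthetases activate fatty acids before they are lengthened, desaturated or esterified. Of 6 reliably expressed ones, only ACSL1 rose between D0 and D4, where 10.4% of all rose. The list median log2 ratio was -0.02, beside 0.06 for all. ACSL1 had an FPKM of 10.7, 57.8, 219 and 128. ACSL4, which prefers arachidonic acid, had 50.2, 35.9, 29.0 and 17.4 and fell by 1.52 on the log2 scale from D0 to D8. Among 7 acyltransferases of phospholipids, LPCAT3, which places polyunsaturated chains in phospholipids, had 1.76, 7.30, 13.6 and 8.70 and was higher than D0 at each later stage. LPCAT2 had 5.40, 23.7, 16.1 and 3.47, a rise at D2 and a fall from D4 to D8. LPCAT2 and LPCAT3 were the 2 of the 7 called higher at D4 than at D0, where 10.4% of all were. The remaining 5 of this list did not reach 2-fold, and the list median for D4 vs D0 was 0.04, beside 0.06 for all.

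SREBP and LXR factors are known regulators of FADS, ELOVL5 and SCD transcription. The list of these factors, their processing proteins and the PPAR family held 12 reliably expressed genes. Between D0 and D4, 4 of them rose (NR1H3, RXRA, PPARG and PPARD), where 10.4% of all rose. None fell (8.81% of all), and the median log2 ratio was 0.69 beside 0.06 for all. NR1H3 was at 1.01, and 3 of the 12 were called with median-of-ratios scaling or a pseudocount of 1 and 5 with protein-coding sum scaling. From D4 to D8, 5 of the 12 fell (MBTPS1, SREBF2, RXRA, PPARG and PPARD), where 10.1% of all fell. The median was -0.69 beside -0.21. With median-of-ratios scaling, 3 of the 12 were called in that comparison. SREBF2, which controls genes of sterol synthesis, had an FPKM of 4.70, 5.18, 6.56 and 2.80. NR1H3, the LXR alpha receptor, had 13.7, 19.6, 27.7 and 21.1. SREBF1 was not reliably expressed by the definition used, with 0.734, 0.970, 3.34 and 2.61.

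Peroxisomes shorten very long chains and complete the making of docosahexaenoic acid. PEX5, a receptor for protein import into peroxisomes, and HSD17B4, a bifunctional enzyme of peroxisomal oxidation, rose between D0 and D4, by log2 ratios of 1.22 and 1.03. The call for HSD17B4 was lost with median-of-ratios scaling. That for PEX5, at an FPKM of 0.607 at D0 and 1.42 at D4, was lost with a pseudocount of 1. ACAA1, the peroxisomal thiolase, had an FPKM of 8.59, 28.1, 71.7 and 41.4. Of 5 reliably expressed genes of ceramide synthesis, only CERS4 rose by at least 2-fold. It went from 2.45 at D0 to 6.09 at D2 and 6.14 at D4. Of all genes, 6.67% rose between D0 and D2 and 10.4% between D0 and D4. The list median for D4 vs D0 was 0.03, beside 0.06 for all.

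Other transcripts at these genes were few. Antisense to the start of FADS2, the lncRNA LOC100739565 had 127, 8, 39 and 28 reads, an FPKM of 0.426 or less, so it was not reliably expressed. LOC110259247, inside FADS3 on the opposite strand, had between 2 and 14 reads per library. LOC110259333, which overlaps TECR on the opposite strand, had 1 read in all. One circular RNA, a back-spliced transcript, was listed within any of the 10 genes, ssc_circ_0000277 in HACD3, with 8 junction reads at D4. It was listed at 0 in the other libraries, where the deposited values start at 2 junction reads.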

How the data were processed

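Total RNA was pooled from 3 piglets per stage, depleted of rRNA and made into strand-specific libraries. Per the labels and the study's methods, the authors trimmed the reads, aligned them with HISAT2 2.0.5 to Sus scrofa 11.1 and deposited FPKM for linear genes. For circRNAs the authors used BWA and CIRI with at least 2 junction reads and deposited SRPBM, junction reads scaled by all mapped reads. The counting tool and its strand setting are not given in the sources used here.

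Library totals were recovered from the smallest shared FPKM of short genes, and the length of each gene as the shortest at which its 4 FPKM values were whole reads (tolerance 0.01), found for 9191 of 9191 reliably expressed genes. A true length that is a multiple of it would give more reads and narrower intervals. The procedure was tested on simulated data.

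Ratios were log2(FPKM + 0.01), with exact binomial 95% intervals, in Python 3.11.15, pandas 2.3.3, numpy 2.4.6 and SciPy 1.17.1. There was no test between stages. Lists were described by counts and medians. The count and median of the peroxisomal list are not reported here. Genes outside the 10 were named if they were reliably expressed list members with a ratio of at least 2, one of the 3 nearest courses, or an overlapping transcript. FADS neighbours were named after values were seen, as were list members below 2-fold, not reliably expressed or not found. The 10 genes and the lists were chosen with earlier results of these data known. Alternatives were pseudocounts of 0.1 and 1, other filters, median-of-ratios and protein-coding sum scaling, and a threshold of 1.5.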

Additional observations from a re-analysis of the deposited data

How the results depend on the processing

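No paired analysis was possible because each stage had 1 library and no result came from a test. For the same reason no replicate could be left out. With a ratio threshold of 1.5 in place of 2, the number of the 9 genes called was 8 in place of 3 for D2 vs D0 and 5 in place of 3 for D8 vs D4. The other counts of the 10 genes stayed within 1.5 times under each pseudocount, filter, scaling and threshold tried. Of 45 log2 ratios, 12 moved beyond their counting interval with a pseudocount of 1, 19 with median-of-ratios scaling and 7 with protein-coding sum scaling, and none changed sign except HACD3 for D8 vs D0. In the SREBP and LXR list, the genes called for D8 vs D4 numbered 3 in place of 5, and those for D4 vs D0 3 in place of 4, both with a pseudocount of 1 and with median-of-ratios scaling, alternatives added after the data were seen. In the malonyl-CoA list the 1 call for D8 vs D4, ACACA, was lost with median-of-ratios scaling. The depth limits ELOVL3, with 1 read in all, and the antisense transcripts in FADS3 and at TECR, with at most 14 reads per library.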
